A study of Mus musculus with 38 samples.

Results

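Bone marrow from mice with leukaemia driven by the MLL-AF9 fusion was compared with normal mouse marrow on Affymetrix whole-genome expression arrays. All arrays whose titles name MLL-AF9 marrow or normal marrow were taken, which gave 5 MLL-AF9 arrays and 4 normal arrays of the 38 in the series. The other 29 arrays hold marrow from 4 cohorts made with other MLL fusions, MLL-AF1p (9 mice), MLL-AF10 (8 mice), MLL-GAS7 (5 mice) and MLL-ENL (7 mice). They were used here to share the estimate of the spread and to show where MLL-AF9 differed from them. Each leukaemia was started by infecting marrow progenitors selected for c-kit with a retrovirus that carried the fusion, then transplanting them into lethally irradiated syngeneic C57BL/6 recipients of either sex. Normal marrow was taken from wild type C57BL/6 mice of either sex, which were not stated to have been irradiated, transplanted or given an empty virus. Age and time after transplant are not given in the sources used here. All cells of the marrow were harvested, frozen and later extracted with Trizol, so the arrays read a mixture of cells and no leukaemic cell was sorted out. For that reason fewer cells of a type and less RNA per cell cannot be told apart in any value below.

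MLL, now named KMT2A, is a histone methyltransferase that keeps homeobox genes active in early blood progenitors. In leukaemia its amino-terminal part is fused to a partner such as AF9, the product of Mllt3, which brings a transcription elongation complex to the genes that MLL binds. HOXA9, HOXA10 and the cofactor MEIS1 then stay on in cells that would otherwise shut them down, and the cells continue to divide at the stage of a granulocyte and monocyte progenitor. Normal marrow by contrast holds erythroid precursors, megakaryocytes, B cell precursors, maturing neutrophils, macrophages and stroma.

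Levels are given as log2 of the array intensity plus 46.1, after arrays had been aligned on their medians. A change is the MLL-AF9 mean minus the normal mean on that scale, with its standard error, and a gene was called when the limma test gave a Benjamini-Hochberg adjusted p under 0.05 over 13334 genes. The MLL-AF9 mice are labelled MLL-AF9_301, MLL-AF9-305, MLL-AF9_307, MLL-AF9-308 and MLL-AF9-310, and strings of 5 values follow that order. Strings of 4 values are normal samples 1 to 4. One mouse stood behind each array as far as the labels say. The limma p-values rest on the spread between samples within groups, estimated over all 38 arrays of the series. That spread therefore includes the cohorts made with other fusions and is not that of the MLL-AF9 and normal samples alone. As deposited, median intensity ran from 143.3 to 160.2 in MLL-AF9 and from 160.1 to 184.9 in normal marrow. Pairs of MLL-AF9 arrays correlated at 0.937 to 0.959 over all probe sets. The 3' to 5' actin ratio, a sign of RNA integrity, was 0.28 ± 0.046 (SD, n = 5) in MLL-AF9 and 0.136 ± 0.062 (SD, n = 4) in normal marrow on a log2 scale (exact permutation p = 0.0238, adjusted p = 0.0952 over 4 signs), and its part in the results was not tested.

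The leukaemia arrays of the series were divided into 2 sets by clustering. The probe sets used were chosen for splitting the arrays in 2 after cohort means were removed. The method itself therefore yields 2 sets that cut across the cohorts. By 100 probe sets that split arrays within cohorts, 16 leukaemia arrays made up set 1 and 18 made up set 2. The 4 normal arrays were not clustered and were placed with set 2, the side on which they lay. On a scale positive towards set 1 and negative towards set 2, normal samples 1 to 4 lay at -0.46, -0.11, -0.70 and -0.69. The set 2 leukaemia arrays lay at -1.25 to -0.82, so normal sample 2 was close to the midpoint between the sets. Mice MLL-AF9_301, MLL-AF9_307 and MLL-AF9-308 lay in set 1, which held no normal array, and mice MLL-AF9-305 and MLL-AF9-310 lay in set 2. The labels name no batch, so what separates the sets is not known. Calls were therefore repeated with the set as a term and within set 2 alone, where 2 MLL-AF9 arrays faced 4 normal arrays, and these values stand beside a result where they end the call of a named gene or move a count of 3 or more list members by more than 1.5 times. Smaller counts moved by 1 to 3 genes under many alternatives.

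Of 12855 genes outside chromosomes X and Y, 4341 were called (33.8%). Higher in MLL-AF9 were 3057 (23.8%), and 1284 were lower (9.99%). Counts of list members below are to be read beside these shares, which several lists came close to. Beyond 2-fold the sides were nearly even, with 957 higher and 846 lower, and beyond 4-fold the falls led, with 102 higher and 293 lower. All 5 leukaemic values lay above all 4 normal values for 2651 genes (20.6%), and below them for 1170 genes (9.10%). The median gene stood 0.19 higher in MLL-AF9, a shift that was 0.10 after quantile normalization and 0.05 on the values as deposited. The higher share of calls moved with it, from 70.4% to 60.0% and 57.9%. When the array set entered the fit 3255 genes were higher (25.3%) and 1237 lower (9.62%), and 3928 of the 4341 calls kept their direction and threshold. Within set 2 there were 1928 higher and 1013 lower, with 2688 of the calls kept.

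Known targets of MLL fusions were mostly higher. Of 18 tested, 12 were higher and 0 lower, the median change was 1.58, and all 5 leukaemic values lay above all normal values for 12. Over all genes 23.8% were higher and 20.6% were above all normal values. Hoxa9, the homeobox gene most closely tied to MLL-driven leukaemia, lay at 13.10, 12.89, 12.59, 13.34 and 13.45 in the leukaemic mice and at 8.11, 7.89, 7.27 and 7.84 in normal marrow. The groups were far apart in every mouse, a rise of 5.30 ± 0.27 (SE), or 39.3-fold (limma adjusted p = 3.68e-18). Meis1, which encodes the HOX cofactor, was at 11.33, 11.76, 11.32, 11.37 and 11.15 against 7.12, 7.45, 6.14 and 6.26, a rise of 4.64 ± 0.31 (adjusted p = 1.36e-14). The 5 leukaemic values were closer together than the 4 normal ones, which were near the bottom of the scale. Hoxa10 was at 11, 10.59, 10.03, 10.91 and 11.06 against 7.12, 6.88, 7.67 and 6.91, 3.57 ± 0.37 higher (adjusted p = 7.53e-10), with mouse MLL-AF9_307 the lowest.

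Other homeobox genes and their partners followed with more spread. Hoxa5 rose by 3.13 ± 0.37 (adjusted p = 2.62e-08), from 7.25 to 7.49 in normal marrow to between 9.83 and 11.03. Hoxa7 was at 7.20, 7.14, 6.89, 8.77 and 9.45 against 5.91 to 6.35 in normal marrow, so mice MLL-AF9-308 and MLL-AF9-310 stood above the rest (1.86 ± 0.42, adjusted p = 0.000725). Pbx3, which encodes a partner of HOX proteins on DNA, was at 11.40, 9.52, 9.29, 12.20 and 11.32 against 8.68 to 8.89, with mice MLL-AF9-305 and MLL-AF9_307 the lowest (2.01 ± 0.44, adjusted p = 0.000516). Eya1, a phosphatase and transcription cofactor, was at 10.55, 11.33, 10.79, 11.01 and 8.30 against 6.80 to 7.40. Its rise of 3.22 ± 0.75 had adjusted p = 0.000923, and within set 2 the call was lost (2.64, adjusted p = 0.0822). Cdk6, the kinase that drives cells out of G1, lay at 13.90, 14.16, 13.78, 14.06 and 14.05 against 11.86, 11.60, 11.73 and 11.53, with narrow groups that did not meet (2.31 ± 0.20, adjusted p = 1.63e-11). Mef2c (2.0 ± 0.39), Myb (1.31 ± 0.20), Jmjd1c (1.07 ± 0.20) and Lmo2 (1.0 ± 0.19) completed the 12. Flt3, the receptor mutated in many human leukaemias, did not pass the test (1.26 ± 0.60, adjusted p = 0.103), nor did Hoxa11, Id2, Mecom, Six4 and Cbx5. In the HoxB cluster 0 of 4 genes tested were called in either direction, with changes from -0.20 for Hoxb7 to 0.47 for Hoxb2.

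**Figure D1:**
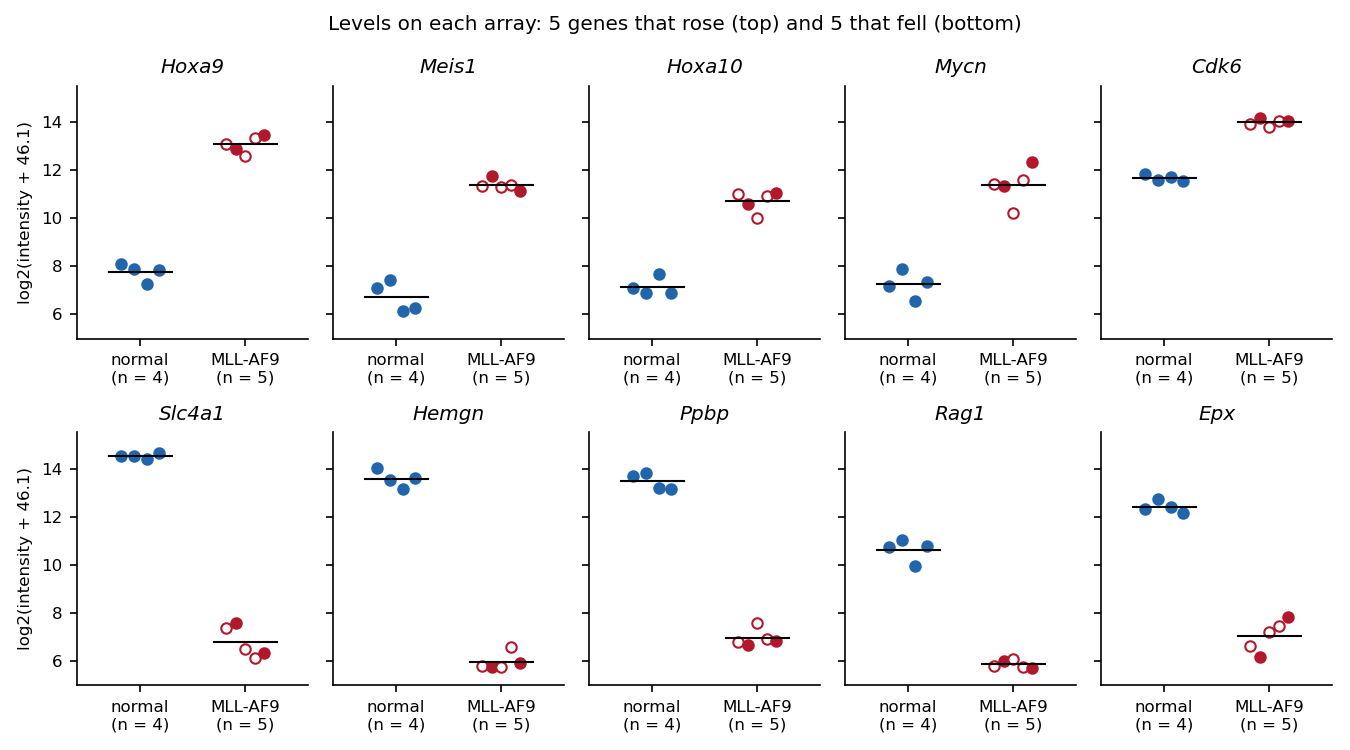
Levels (log2 of intensity plus 46.1, y axis) of 10 genes in the 5 MLL-AF9 and the 4 normal samples. Each point is a mouse, open points are arrays of set 1 and filled points arrays of set 2, and the line is the group mean. The upper genes (Hoxa9, Meis1, Hoxa10, Mycn and Cdk6) lie higher and the lower genes (Slc4a1, Hemgn, Ppbp, Rag1 and Epx) lie lower in every MLL-AF9 mouse than in every normal sample. Each gene is shown by its brightest probe set, and the other probe set of Mycn was called lower.

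The 20 largest rises also held genes outside that list. Hpgd, the enzyme that breaks down prostaglandins, was at 14.18, 13.57, 12.73, 14.30 and 14.33 against 8.04, 9.51, 8.89 and 8.75, 5.03 ± 0.49 higher (adjusted p = 1.96e-10). Sgip1, an endocytosis adaptor, rose by 4.82 ± 0.30, and Tctex1d1, a dynein light chain gene and the next gene tested on chromosome 4, rose by 4.50 ± 0.27. Both were near the bottom of the scale in normal marrow (6.56 to 7.31 and 5.84 to 7.01) and much higher in every leukaemic mouse, with the lowest values at 10.79 and 10.49. Apoc2, an apolipoprotein that activates lipoprotein lipase, rose by 4.68 ± 0.52, with normal values that ranged from 5.75 to 8.71. Slc4a8, a bicarbonate transporter, rose by 4.66 ± 0.26, while its other probe set stood at -0.02. Dsp, which encodes the junction protein desmoplakin, rose by 4.40 ± 0.57.

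Mycn, the MYC family gene, was at 11.44, 11.35, 10.22, 11.58 and 12.33 against 7.20, 7.87, 6.58 and 7.37. Its rise of 4.13 ± 0.37 (adjusted p = 3.47e-11) was not seen on its other probe set, which was itself called lower, at -1.03. The 2 probe sets thus gave opposite calls. Penk (proenkephalin, 3.55 ± 0.60), Ikzf2 (the Ikaros family factor Helios, 3.43 ± 0.76), Il31ra (an interleukin receptor chain, 3.23 ± 0.57) and Itga1 (integrin alpha 1, 3.11 ± 0.42) rose on every probe set kept for them. Fnbp1l, which links membranes to actin, rose by 3.69 ± 0.39, Calml4, a calmodulin-like gene, by 3.28 ± 0.45, Tln2 (talin 2) by 2.99 ± 0.24 and Eml5, a microtubule protein gene, by 2.87 ± 0.53. Mouse MLL-AF9_307 was the lowest of the leukaemic mice for Hoxa9, Hpgd, Fnbp1l and Ikzf2, and still above every normal sample for each.

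Erythroid genes showed the deepest loss. Of 26 tested 25 were lower and 0 higher, with a median change of -5.08, against a background of 9.99% lower among all genes. All 5 leukaemic values lay below all 4 normal values for 26 of 26 (background 9.10%). The mean level over the list ran from 7.70 to 7.94 in the leukaemic mice and from 12.22 to 12.83 in normal marrow. GATA1, with its partners TAL1 and KLF1, switches on these genes in normal red cell precursors by binding a short GATA motif near them. Promoters of 3 strongly reduced genes are shown with that motif, GATAA or its reverse complement TTATC, in capitals. No rule set the choice of these 3 genes, and all of them hold the motif. For Slc4a1, Car1 and Car2 no promoter sequence was available. Each run holds the 250 bases before the first listed start of the gene in RefSeq (GRCm38.p6), written on the gene's own strand. Hemgn (hemogen) lies at chr4:46404184-46404433 on the minus strand with the motif's first base 12 bases before the start, Rhag (a blood group glycoprotein) at chr17:40810899-40811148 on the plus strand with the motif 31 bases before, and Epb42 (protein 4.2 of the red cell membrane) at chr2:121036878-121037127 on the minus strand with the motif 226 bases before.
Hemgn: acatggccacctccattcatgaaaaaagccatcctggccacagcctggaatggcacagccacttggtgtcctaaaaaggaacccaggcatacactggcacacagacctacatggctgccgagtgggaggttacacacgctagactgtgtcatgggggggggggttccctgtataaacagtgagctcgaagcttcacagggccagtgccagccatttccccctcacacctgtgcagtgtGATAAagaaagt
Rhag: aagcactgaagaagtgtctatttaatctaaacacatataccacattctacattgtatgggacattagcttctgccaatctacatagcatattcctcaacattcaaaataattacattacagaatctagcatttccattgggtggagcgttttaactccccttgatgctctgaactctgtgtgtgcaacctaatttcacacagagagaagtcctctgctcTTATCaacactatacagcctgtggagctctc
Epb42: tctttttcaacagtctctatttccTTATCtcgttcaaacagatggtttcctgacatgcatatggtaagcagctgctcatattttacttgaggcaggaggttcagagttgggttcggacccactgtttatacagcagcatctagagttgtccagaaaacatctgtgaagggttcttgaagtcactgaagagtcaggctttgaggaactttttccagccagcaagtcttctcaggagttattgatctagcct
The motif stood on either strand of this window in 12 of the 20 erythroid genes that had a promoter in the table (60.0%), in 7 of 16 megakaryocyte genes (43.8%), in 3 of 10 haem and globin genes (30.0%), in 4 of 22 monocyte genes (18.2%) and in 0 of 12 primary granule genes. It stood in 6221 of all 27025 promoters of the same length (23%). The motif CCACACCC or its reverse complement GGGTGTGG, which KLF1 binds, was in 0 of the 20 erythroid windows and in 861 of all 27025 (3.19%).

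Slc4a1, the band 3 anion exchanger of the red cell membrane, was at 7.36, 7.58, 6.51, 6.12 and 6.32 in the leukaemic mice and at 14.51, 14.52, 14.38 and 14.63 in normal marrow. It had the largest fall among the genes that met the naming rule, 7.73 on the log2 scale with an SE of 0.39 (adjusted p = 3.68e-18). Hemgn, whose promoter is shown above, was at 5.78, 5.75, 5.74, 6.58 and 5.90 against 14.03, 13.51, 13.14 and 13.61. It fell by 7.62, with an SE of 0.31 (adjusted p = 6.31e-21), and mouse MLL-AF9-308 was the highest of the leukaemic mice. Rhag was at 6.00, 6.26, 6.64, 6.48 and 6.13 against 12.71, 12.73, 12.05 and 12.77, a fall of 6.26. Epb42 was at 6.29, 5.89, 6.30, 6.06 and 6.29 against 11.53, 10.81, 10.96 and 11.08, a fall of 4.93. None of these groups overlapped. The carbonic anhydrases Car2 (-7.65) and Car1 (-6.13), Tent5c (-7.68), Tspan33 (-6.07), Ermap (-5.94), Aqp1 (the water channel, -5.61), Bpgm (the enzyme that makes bisphosphoglycerate, -5.49) and Kel (-5.38) also fell.

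Regulators within the erythroid list fell as well. Tal1 was at 7.17, 6.97, 6.47, 7.26 and 7.38 against 12.69, 12.32, 11.65 and 12.50, a change of -5.23 ± 0.35 (adjusted p = 1.23e-14). Klf1 changed by -4.46 ± 0.25, Gfi1b by -3.11 ± 0.41 and Epor, the erythropoietin receptor, by -3.22 ± 0.23. Nfe2, a factor shared by red cells, platelets and myeloid cells, was the exception, at 12.22 to 12.79 against 12.81 to 13 (-0.32 ± 0.17, adjusted p = 0.15). Haem synthesis and globin genes were lower for 11 of 13 and higher for 0 (median -1.96). Cpox (-3.76 ± 0.21), Alad (-3.34 ± 0.26), Fech (-2.90 ± 0.21) and Urod (-2.58 ± 0.20), 4 enzymes of the haem pathway, fell below every normal value. Genes for iron uptake, storage and export were lower for 10 of 17 (median -1.14), among them Tfrc, the transferrin receptor (-2.16 ± 0.22), Slc40a1, the iron exporter ferroportin (-2.28 ± 0.49), and Steap4, an iron reductase (-3.03 ± 0.27). Part of this count repeats other lists. Tfrc is also an erythroid member, Ltf a late neutrophil member, and Slc40a1 and Hmox1 are resident macrophage members.

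Platelet and megakaryocyte genes were lower for 16 of 19 and higher for 0 (median -2.0). Ppbp, the platelet chemokine, was at 6.80, 6.65, 7.56, 6.90 and 6.84 against 13.71, 13.83, 13.18 and 13.15, with nothing between the groups (-6.52 ± 0.33, adjusted p = 3.68e-18). Pf4, platelet factor 4, fell by 4.75 and Clec1b, a platelet lectin, fell by 3.56. Zfpm1, the GATA1 cofactor FOG1, fell by 4.06 and Vwf, von Willebrand factor, fell by 3.53. Mouse MLL-AF9-305 had the highest leukaemic Vwf value at 7.66, against 5.75 to 6.22 in the other leukaemic mice and 9.30 to 10.15 in normal marrow. Itga2b, the platelet integrin alpha IIb, changed by -1.95 ± 0.23.

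B cell genes were lower for 20 of 22 and higher for 0 (median -2.80). Rag1, which cuts antigen receptor genes in B cell precursors, was at 5.77, 6.01, 6.09, 5.74 and 5.70 against 10.74, 11.04, 9.96 and 10.77. The leukaemic values were all near the bottom of the scale (-4.76 ± 0.29, adjusted p = 7.93e-16). Pou2af1 (a B cell coactivator, -4.66 ± 0.34), Spib (-4.38 ± 0.30), Cd79a (a chain of the B cell receptor, -4.18 ± 0.37), Blnk (-3.92 ± 0.45) and Il7r (the interleukin 7 receptor, -2.93 ± 0.26) fell as well. T cell and NK cell genes were lower for 10 of 17 (median -0.85). Cd3d, a T cell receptor chain, was at 5.85 to 6.30 in MLL-AF9 and at 11.25, 9.38, 7.74 and 7.62 in normal marrow, and fell by 2.92, with normal samples that differed widely. Klrd1 (-1.39 ± 0.27) and Cd2 (-1.56 ± 0.34) fell from tighter normal groups.

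Plasma cell genes were mixed, with 3 higher and 4 lower of 10 (2 and 1 within set 2). Mzb1, which helps assemble antibodies, changed by -2.49 ± 0.20. Jchain (-2.17 ± 0.56) and Igha (-1.76 ± 0.56) fell with mice MLL-AF9-308 and MLL-AF9-310 the highest, and both calls were lost within set 2 (adjusted p = 0.124 and 0.244). Edem1, which clears misfolded proteins in many cells, rose by 1.06 ± 0.22.

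Eosinophil, basophil and mast cell genes were lower for 6 of 12 and higher for 1. Epx, eosinophil peroxidase, was at 6.64, 6.17, 7.19, 7.47 and 7.81 against 12.32, 12.73, 12.42 and 12.17, well apart (-5.36 ± 0.44, adjusted p = 2.34e-12). Prg2, the eosinophil major basic protein, changed by -4.51 ± 0.90, Alox15 by -4.27 ± 0.39, Ms4a2, a chain of the IgE receptor, by -2.21 ± 0.40, Fcer1a, another, by -1.85 ± 0.39, and Mcpt8, a basophil protease, by -1.52 ± 0.31. Siglecf, a lectin found on eosinophils, was the member that rose, at 11.25, 9.16, 8.90, 10.98 and 11.20 against 7.81 to 8.34 (2.24 ± 0.50, adjusted p = 0.000575). Mice MLL-AF9-305 and MLL-AF9_307 lay well below the other leukaemic mice and above the normal range. Gata2 (0.25), Cpa3 (0.35), Cma1 (-0.44), Hdc (-1.63) and Prg3 (-2.06) did not pass.

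**Figure D2:**
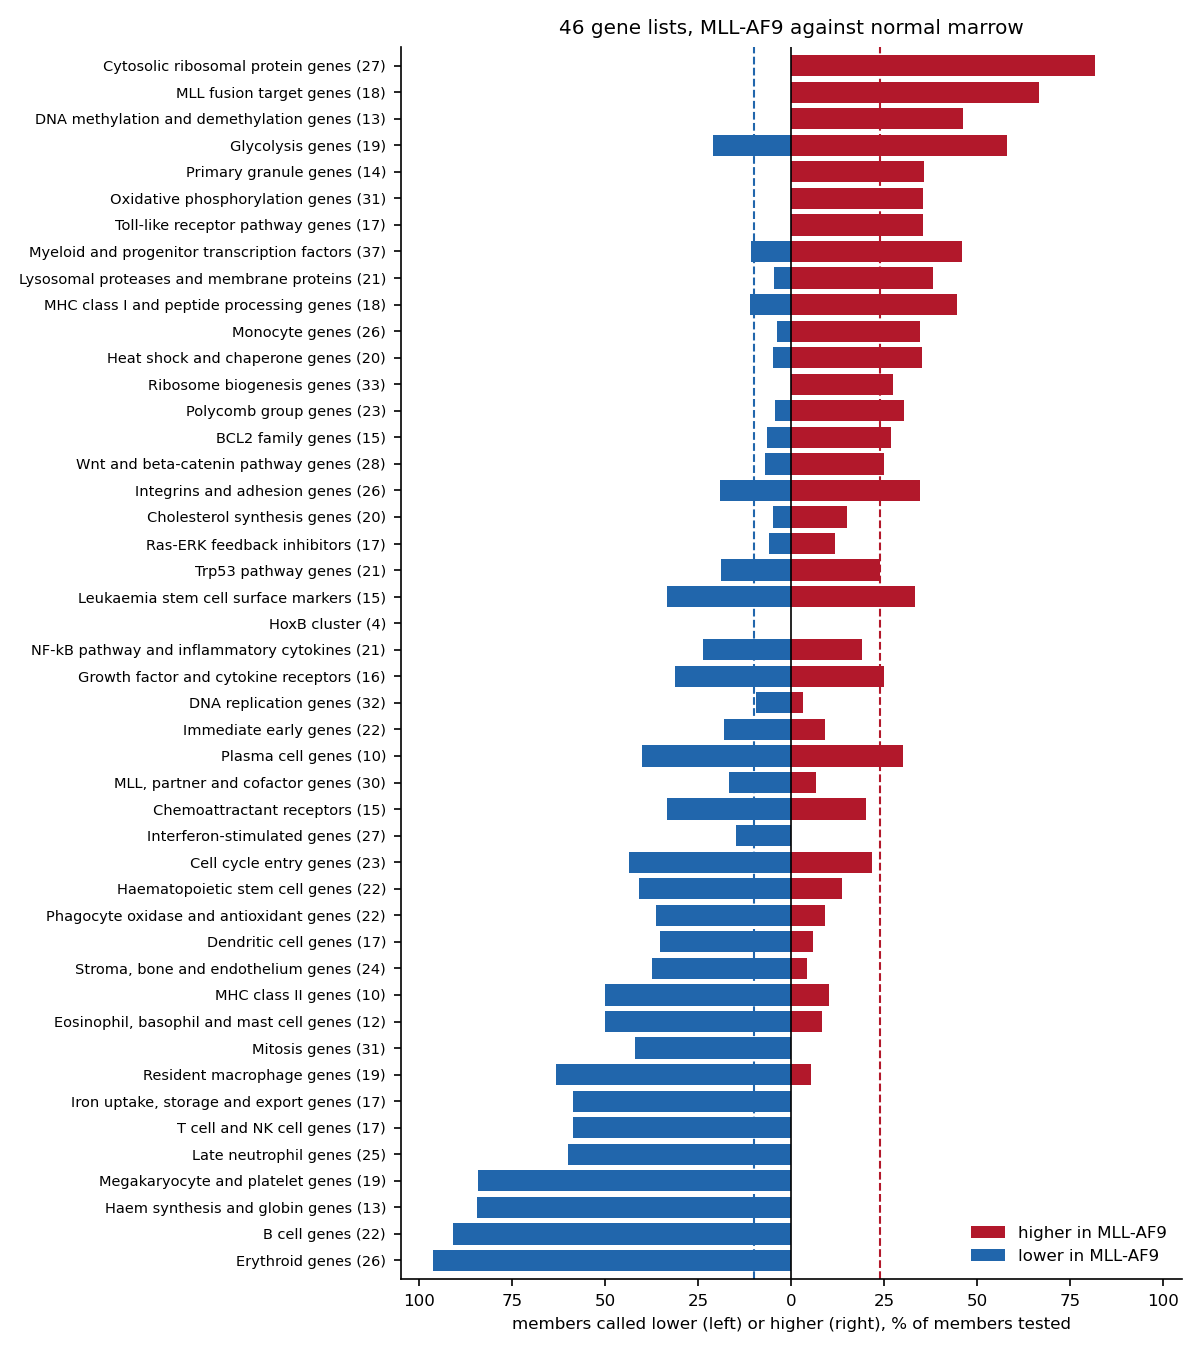
Share of the tested genes of each list that were called higher or lower in MLL-AF9 (percent, x axis), with the number tested in brackets. The dashed lines mark the shares over all 12855 genes, 23.8% higher and 9.99% lower. Erythroid genes (25 of 26) and B cell genes (20 of 22) lie at the far end of the lower side, and cytosolic ribosomal protein genes (22 of 27) and MLL target genes (12 of 18) at the far end of the higher side.

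Of the myeloid lists, primary granule genes, made by promyelocytes, were higher for 5 of 14 and lower for 0 (median 0.42, or 0.16 after quantile normalization), a share of 35.7% that is not far from the 23.8% of all genes. Ctsg, the protease cathepsin G, was at 14.69, 14.62, 14.46, 15.08 and 14.89 against 12.47, 12.94, 13.58 and 12.83, all leukaemic values above all normal ones (1.79 ± 0.29, adjusted p = 5.44e-06). Gfi1, a repressor needed for granulocyte fate, rose by 2.11 ± 0.39, Prtn3, proteinase 3, by 1.22 ± 0.21 and Srgn, the granule proteoglycan, by 0.80 ± 0.18. Elane, neutrophil elastase, rose by 0.92 ± 0.26 (adjusted p = 0.00662, and 0.085 after quantile normalization). Mpo, myeloperoxidase, the defining enzyme of these granules, was at 14.27 to 15.06 against 14.33 to 15.21 and did not pass (-0.20 ± 0.24, adjusted p = 0.565).

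Late neutrophil genes were lower for 15 of 25 and higher for 0 (median -1.72, with 10 lower within set 2). Ltf, the secondary granule protein lactoferrin, was at 10.46, 11.90, 11.17, 11.46 and 11.30 against 14.70, 14.83, 15.29 and 14.93. The nearest values were still far apart (-3.68 ± 0.80, adjusted p = 0.000464). Wfdc21 (-3.65 ± 0.69), the collagenase Mmp8 (-3.35 ± 0.57) and Cxcr2, the receptor that calls neutrophils to tissue (-3.30 ± 0.67), fell too. Csf3r, the receptor for G-CSF, was at 10.11, 12.06, 10.27, 10.79 and 11.73 against 12.12 to 12.90, and its fall of 1.45 was lost within set 2 (adjusted p = 0.343). The calprotectin genes S100a8 (-0.74) and S100a9 (-0.37) and the granule gene Ngp (-0.96), all very bright in both groups, did not pass. These were picked out after their values were seen.

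Monocyte genes were higher for 9 of 26 (34.6%, again not far from all genes) and lower for 1 (median 0.59). Ms4a6c was at 13.15, 13.44, 13.63, 12.85 and 13.26 against 9.95, 11.88, 11.89 and 10.87, with no overlap and a wide normal group (2.12 ± 0.33, adjusted p = 3.71e-06). The chemokine gene Ccl9 (1.94 ± 0.39), Emb (1.82 ± 0.19), Ly86 (1.75 ± 0.30), the lysosomal marker Cd68 (1.46 ± 0.25) and Csf1r, the M-CSF receptor (1.04 ± 0.26), rose. Cd36, a scavenger receptor that red cell precursors also carry, was the member that fell (-4.56 ± 0.42). Resident macrophage genes were lower for 12 of 19 and higher for 1 (median -2.0). The complement genes C1qa and C1qc fell by 4.18 and 3.54, Mrc1, the mannose receptor, by 2.95, Cd5l by 2.73 and Hmox1, haem oxygenase 1, by 2.53. Adgre1, which encodes F4/80, rose instead, from between 10.08 and 10.73 to between 11.47 and 12.23 (1.49 ± 0.20, adjusted p = 2.18e-07). Dendritic cell genes were lower for 6 of 17 and higher for 1, and those that fell included Siglech (-2.15 ± 0.37), a marker of plasmacytoid cells, Cd83 (-1.32 ± 0.32), and Ly6d and Dntt, which B cell precursors also express (-3.63 ± 0.33 and -2.83 ± 0.40).

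**Figure D3:**
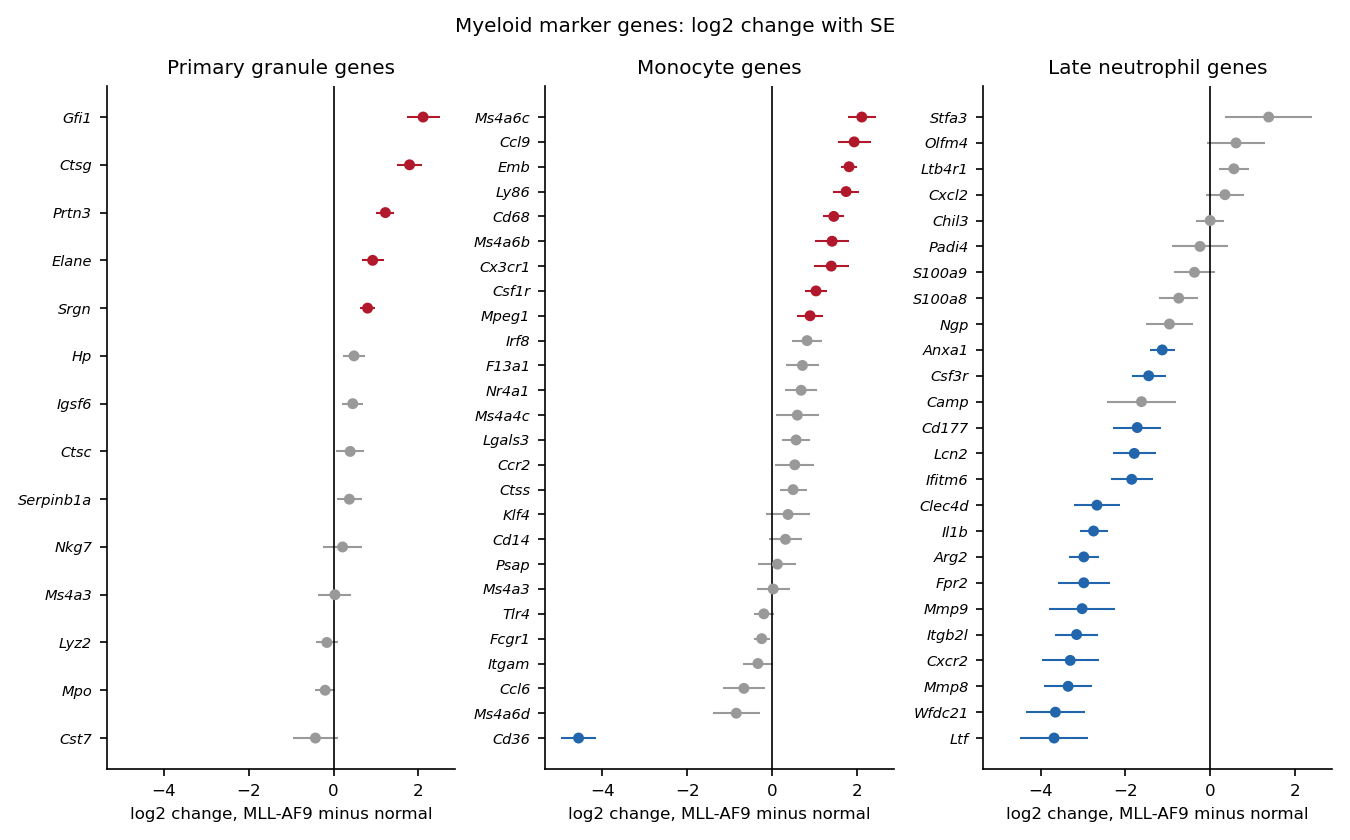
Log2 change of MLL-AF9 against normal marrow (x axis) with its standard error (bars) for 14 primary granule, 26 monocyte and 25 late neutrophil genes. Red points were called higher, blue points lower and grey points not called. Primary granule genes lie at or above 0 when called, late neutrophil genes lie below 0 when called, and in the monocyte list 9 are higher and Cd36 is lower.

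Stroma, bone and endothelium genes were lower for 9 of 24 and higher for 1 (median -0.30). Cxcl12, the chemokine that holds stem cells in the marrow, was at 8.64, 8.27, 7.97, 8.51 and 8.14 against 11.89, 11.99, 11.61 and 11.46 (-3.43 ± 0.47, adjusted p = 3.72e-07). The groups were far apart, though the highest of its 3 probe sets stood at 0.23. The fat cell hormone Adipoq (-3.48 ± 0.42), the matrix gene Dcn (-1.91 ± 0.41) and the collagen gene Col1a2 (-1.54 ± 0.23) fell as well.

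Haematopoietic stem cell genes were lower for 9 of 22 and higher for 3 (median -0.48). Among the 9 were Vwf and Gfi1b, whose falls are also counted in the platelet and erythroid lists above. The 3 that rose were Meis1, Cd34 and Erg (0.84 ± 0.26). Cd34, the progenitor surface marker, was at 11.37, 11.06, 11.54, 12.22 and 10.62 against 8.83 to 9.44, a rise of 2.28 ± 0.60 that lost its call within set 2 (1.76, adjusted p = 0.0709). Ifitm1 fell by 3.44, Pdzk1ip1 fell by 3.01 and Mllt3, the normal gene for AF9, by 2.40, from 8.18 to 9.57 in normal marrow to between 6.10 and 7.25. Markers of leukaemia stem cells were divided, with 5 higher and 5 lower of 15 (3 higher within set 2). Cd93, a lectin-like receptor, rose by 1.75 ± 0.36, the Fc receptor Fcgr2b by 1.62 ± 0.16 and Cd47, the signal that holds off phagocytes, by 0.65 ± 0.13. Prom1 (-1.78 ± 0.49) and Cd9 (-1.63 ± 0.39) fell. Kit, the receptor used to select the progenitors, was at 10.34, 10.80, 10.18, 11.29 and 10.89 against 9.69 to 10.38, overlapping, and did not pass (0.69 ± 0.39, adjusted p = 0.179).

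Growth factor and cytokine receptors were higher for 4 and lower for 5 of 16 (3 lower within set 2). Ifngr1, the interferon gamma receptor, was at 13.05, 13.20, 12.44, 13.18 and 12.69 against 10.11, 10.85, 11.17 and 10.82, clearly apart (2.17 ± 0.23, adjusted p = 1.26e-09). Il6ra, the interleukin 6 receptor, rose by 2.21 ± 0.44, highest in mouse MLL-AF9_307 at 12.16. Tgfbr2, the receptor for the growth inhibitor TGF-beta, fell by 1.20.

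Myeloid and progenitor transcription factors were higher for 17 of 37 and lower for 4 (median 0.66). Cebpa, the master regulator of granulocyte and monocyte progenitors, was at 12.45, 12.78, 12.62, 12.19 and 12.05 against 10.62, 11.47, 11.22 and 10.66, with no overlap (1.43 ± 0.30, adjusted p = 0.00029). Spi1, which encodes PU.1, rose less, by 0.66 ± 0.18, and 1 normal value (12.59) lay within the leukaemic range. Etv6 (1.60 ± 0.22) and Myc (1.28 ± 0.40) rose, and Trib2 (-3.05 ± 0.24) and Maf (-2.0 ± 0.35) fell.

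Genes of MLL itself, its partners and cofactors mostly stayed below the threshold, with 2 higher and 5 lower of 30 (4 higher with the set as a term or without normal sample 2, 5 higher with array weights, and 8 lower when the probe sets of a gene were averaged). Kmt2a was at 9.78, 10.54, 9.76, 10.01 and 10.26 against 10.03, 10.38, 10.31 and 10.12, overlapping (-0.14 ± 0.15, adjusted p = 0.529). Mllt10 (0.77 ± 0.19) and Wdr5 (0.65 ± 0.14) rose. Ell2, an elongation factor that plasma cells use, fell by 3.01, Aff3 by 2.47 and Psip1, which tethers MLL to chromatin, by 1.13. Aff3 was higher in mice MLL-AF9-305 and MLL-AF9_307 (8.93 and 8.35) than in the others (6.35 to 6.68). Mllt1, which encodes ENL, did not pass (0.89 ± 0.36, adjusted p = 0.0543), nor did Gas7 (-0.18 ± 0.42, adjusted p = 0.78).

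Polycomb group genes, which silence developmental loci, were higher for 7 of 23 and lower for 1 (4 higher without normal sample 3). The share of 30.4% higher was not far from the 23.8% of all genes. Jarid2 was at 11.58, 11.80, 11.91, 11.96 and 12.06 against 10.53, 10.56, 10.47 and 10.32, with no overlap (1.39 ± 0.14, adjusted p = 2.38e-10). Mtf2 (0.98 ± 0.19), Phf19 (0.91 ± 0.18) and Pcgf5 (0.85 ± 0.20) rose. Genes of DNA methylation and its removal were higher for 6 of 13 and lower for 0 (median 0.76, with 4 higher and 1 lower within set 2). Tet2, which oxidises methylcytosine, was at 10.77, 11.30, 11.47, 10.90 and 10.94 against 9.32, 9.54, 9.56 and 9.31, tight in both groups (1.64 ± 0.20, adjusted p = 2.93e-08). Idh1 (1.73 ± 0.30), Mbd1 (0.89 ± 0.17) and Dnmt3l (1.71 ± 0.46) rose, the last with mouse MLL-AF9_307 at 6.65, inside the normal range.

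Wnt pathway genes were higher for 7 and lower for 2 of 28 (4 higher within set 2). These shares, 25% and 7.14%, were close to the 23.8% and 9.99% of all genes. Rnf43, a ligase that removes Wnt receptors, led the rises (2.62 ± 0.35). Lrp6, a Wnt coreceptor, rose by 0.83 ± 0.17, and Lef1, a factor at the end of the pathway, fell by 1.29. Feedback inhibitors of Ras and ERK were higher for 2 and lower for 1 of 17 (11.8% and 5.88%), with Dusp7 at 1.60 ± 0.26. NF-kB and inflammatory genes were higher for 4 (19%) and lower for 5 (23.8%) of 21. Of these, 2 were lower within set 2, and 3 were lower without mouse MLL-AF9_301, mouse MLL-AF9-308 or normal samples 1 or 2. Ccl3 rose by 2.43 ± 0.38, while Il1b (-2.75 ± 0.33) and Il18 (-1.55 ± 0.24) fell. Of 27 interferon-stimulated genes 4 were lower (14.8%) and 0 higher, with 7 lower when only the 9 arrays were in the fit. Rsad2, an antiviral enzyme, was at 8.25, 7.61, 7.59, 7.68 and 8.32 against 13.72, 13.95, 12.82 and 13.43, and Isg20, an exonuclease, was at 7.91 to 8.48 against 12.46 to 13.34. These falls of 5.59 and 4.86 stood beside a median of -0.26 for the list.

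MHC class I and peptide processing genes were higher for 8 and lower for 2 of 18 (5 higher within set 2), with Erap1 (1.11 ± 0.26) and Calr (1.03 ± 0.21) higher and H2-Q10 lower (-3.01 ± 0.56). H2-Q10 has near-identical relatives, which its probe set may also read. MHC class II genes were higher for 1 and lower for 5 of 10, and within set 2 only 1 was lower. H2-DMa, which loads peptides, was the member that rose (1.46 ± 0.32). Ciita, the regulator of the class, was at 6.90 to 7.68 against 8.01 to 8.50 (-0.98 ± 0.27). The class II chains themselves differed among the leukaemic mice, as described below.

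Lysosomal genes were higher for 8 and lower for 1 of 21 (median 0.46), among them Npc2, a cholesterol carrier (1.37 ± 0.16), Ctsa (1.65 ± 0.25) and Ctsh (1.27 ± 0.22). Phagocyte oxidase and antioxidant genes were higher for 2 and lower for 8 of 22 (5 lower with a pseudocount of 1). Prdx2, the peroxiredoxin of red cells, fell by 2.47, Gclm by 2.45 and Cat, catalase, by 1.19, while Gsr, glutathione reductase, rose by 1.14. Integrins and adhesion genes were higher for 9 and lower for 5 of 26 (3 lower with the set as a term, and 3 lower without normal sample 2). Beside Itga1, the largest rises were those of Icam2 (1.71 ± 0.33) and Itga5 (1.58 ± 0.28). Chemoattractant receptors were higher for 3 and lower for 5 of 15 (3 lower within set 2). Gpr183 rose by 1.81 ± 0.34 and Cxcr4, the receptor for CXCL12, by 0.88 ± 0.18, from 12.66 to 13.18 in normal marrow to between 13.62 and 13.86. The formyl peptide receptor Fpr2 (-2.98 ± 0.61) and Ccrl2 (-2.32 ± 0.33) fell. Toll-like receptor genes were higher for 6 and lower for 0 of 17 (35.3% higher, against 23.8% of all genes). Tlr1 rose by 1.32 ± 0.29 and the adaptor Ticam1 by 1.0 ± 0.21.

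Cell cycle entry genes were higher for 5 and lower for 10 of 23 (median -0.46). Cdk6, Myc and the inhibitor Cdkn1a (1.30 ± 0.25) were among the rises. E2f2 (-2.15 ± 0.34) and the cyclins Ccne1 (-1.21 ± 0.26), Ccnd2 (-1.19 ± 0.25) and Ccnd3 (-1.07 ± 0.18) fell. DNA replication genes were higher for 1 and lower for 3 of 32 (3 higher with the set as a term or with array weights, and 7 lower after quantile normalization or on the values as deposited), with Cdc6 at -1.14 ± 0.27 and Rrm2, a subunit of ribonucleotide reductase, at -1.01 ± 0.17. Mitosis genes were lower for 13 of 31 and higher for 0 (median -0.42, with 22 lower after quantile normalization and 19 on the values as deposited). The mean level over the list was 11.19, 10.18, 11.05, 11.23 and 11.16 in the leukaemic mice, against 11.32 to 11.64 in normal marrow. Mouse MLL-AF9-305 was thus far below the other leukaemic mice, which lay closer to normal. When single samples were left out, 9 to 13 genes were lower and the median ran from -0.50 to -0.26. Ube2c, which marks mitotic proteins for removal, was at 12.13, 10.89, 11.98, 12.39 and 12.41 against 13.80, 13.15, 13.27 and 13.60, and mouse MLL-AF9-305 was the lowest (-1.50 ± 0.24, adjusted p = 6.11e-06). Birc5 (-1.10 ± 0.21), Cenpf (-1.06 ± 0.25) and Ccna2 (-1.04 ± 0.24) fell in the same way, each lowest in mouse MLL-AF9-305.

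Genes for the cytosolic ribosome were higher for 22 of 27 and lower for 0 (median 0.54), but the count was 8 and the median 0.14 after quantile normalization, and 10 were higher within set 2. Rpl37 was at 13.20, 12.75, 12.84, 12.85 and 12.79 against 11.13, 11.23, 11.41 and 10.89, the largest rise in the list (1.72 ± 0.18, adjusted p = 1.57e-09). Rpl11 (1.03 ± 0.14) and Rps19 (0.92 ± 0.18) were also above every normal value. Many ribosomal probe sets may read more than 1 gene copy, and 6 genes were higher without such probe sets. Ribosome biogenesis genes were higher for 9 of 33 (27.3%, near the 23.8% of all genes) and lower for 0. The higher count was 17 without mouse MLL-AF9-305, 19 with array weights and 2 within set 2. Wdr43 (0.95 ± 0.19) and Nop10 (0.86 ± 0.20) were above every normal value in all 5 mice.

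Glycolysis genes were higher for 11 and lower for 4 of 19 (median 0.68, with 7 higher within set 2). Pgam1 was at 13.87, 13.58, 13.72, 13.75 and 13.44 against 12.15, 12.44, 13.08 and 12.38, with no overlap (1.16 ± 0.19, adjusted p = 6.6e-06). Tpi1 (1.16 ± 0.18), Aldoc, an aldolase (1.03 ± 0.23), and the myeloid hexokinase Hk3 (1.07 ± 0.21) rose, while the transporters Slc2a3 (glucose, -2.78 ± 0.61) and Slc16a1 (lactate, -2.49 ± 0.43) fell. Oxidative phosphorylation genes were higher for 11 of 31 (35.5%, against 23.8% of all genes) and lower for 0 (median 0.25). But 7 were higher and 3 lower after quantile normalization, with a median of 0.02, and 4 were higher within set 2. Uqcrc2 rose by 0.89 ± 0.17 and Cycs, cytochrome c, by 0.83 ± 0.18. Cholesterol synthesis genes were higher for 3 and lower for 1 of 20 (5 higher with array weights, 1 on the values as deposited or without mouse MLL-AF9-308, and 0 within set 2), and Scd1, a fatty acid desaturase, changed by -1.90 ± 0.26.

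In the BCL2 family 4 genes were higher and 1 lower of 15 (2 higher when probe sets were averaged). That was 26.7% higher, near the 23.8% of all genes. Pmaip1, the death inducer NOXA, was at 10.94, 10.33, 10.32, 10.57 and 10.07 against 7.62, 7.95, 7.70 and 7.62, tight on both sides (2.72 ± 0.34, adjusted p = 7.92e-08). Bid rose by 1.32 ± 0.22. Bcl2l1, the survival gene for BCL-XL on which red cell precursors and platelets depend, fell by 2.38, from between 11.61 and 12.26 to between 9.13 and 10.19. Trp53 pathway genes were higher for 5 and lower for 4 of 21 (2 lower within set 2, and 3 higher without mouse MLL-AF9-308 or normal samples 3 or 4). Their higher share, 23.8%, was that of all genes. Xpc, a repair factor, rose by 2.05 ± 0.34 and Gadd45a, a growth arrest gene, fell by 2.85. Heat shock genes were higher for 7 and lower for 1 of 20 (4 higher without normal sample 4, 3 with averaged probe sets and 1 within set 2). The share of 35% higher stood against 23.8% of all genes, and Dnajb1 changed by -0.87 ± 0.21. Immediate early genes were higher for 2 and lower for 4 of 22 (1 lower within set 2), with Ier5 at -1.10 ± 0.26.

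A total of 155 genes had an SD above 1 among the 5 leukaemias, close to the 142 among the 4 normal samples, with median SDs of 0.29 and 0.27. By mouse, between 2251 and 2519 genes lay more than 2-fold from the normal mean, against 130 to 208 in a normal sample. Among the genes picked for the widest spread a division of the mice recurred, and for that reason it is given as a description with no test. Mice MLL-AF9-305 and MLL-AF9_307 were high for MHC class II. Cd74, the invariant chain, was at 9.47, 12.82, 12.02, 9.77 and 9.84 against 13.10 to 13.57 in normal marrow, so mice MLL-AF9-305 and MLL-AF9_307 stood near the normal range and the others far below it. H2-Aa was at 9.00, 12.46, 11.83, 9.14 and 9.43 against 12.40 to 12.79, and H2-Eb1 at 8.78, 11.35, 10.76, 8.77 and 8.77 against 11.18 to 11.87. The calls of all 3 against normal were lost within set 2 (adjusted p = 0.0584, 0.117 and 0.101). Mef2c was highest in the same mice, at 11.31, 12.91, 12.87, 10.94 and 12.

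Mice MLL-AF9_301, MLL-AF9-308 and MLL-AF9-310 were high for another set. Stfa3, a stefin of myeloid cells, was at 12.32, 8.03, 8.15, 11.52 and 11.35 against 8.57 to 9.70, and Stfa2l1 at 13.33, 10.31, 9.69, 13.01 and 12.63 against 10.72 to 12.31. The stefins are near-identical copies and their probe sets may read more than 1 of them. Hdc, histidine decarboxylase, was at 9.67, 6.50, 6.80, 10.78 and 10.26 against 9.30 to 11.44. Prg2 (9.68, 8.46, 8.36, 11.03 and 10.18), Siglecf and Vcam1 (11.87, 9.44, 9.02, 12.98 and 10.91) also had mice MLL-AF9-305 and MLL-AF9_307 at the bottom. Tcf24, a helix-loop-helix factor gene, was high only in mice MLL-AF9_301 and MLL-AF9-308 (11.33 and 10.39) beside 6.82 to 8.24 in the others. The division did not follow the array sets, since mouse MLL-AF9-305 lay in set 2 and mouse MLL-AF9_307 in set 1. Mouse MLL-AF9-305 also stood alone as the lowest of the 5 for Rrm2 (12.18 against 12.83 to 13.07), Ube2c, Birc5 and Cenpf.

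**Figure D4:**
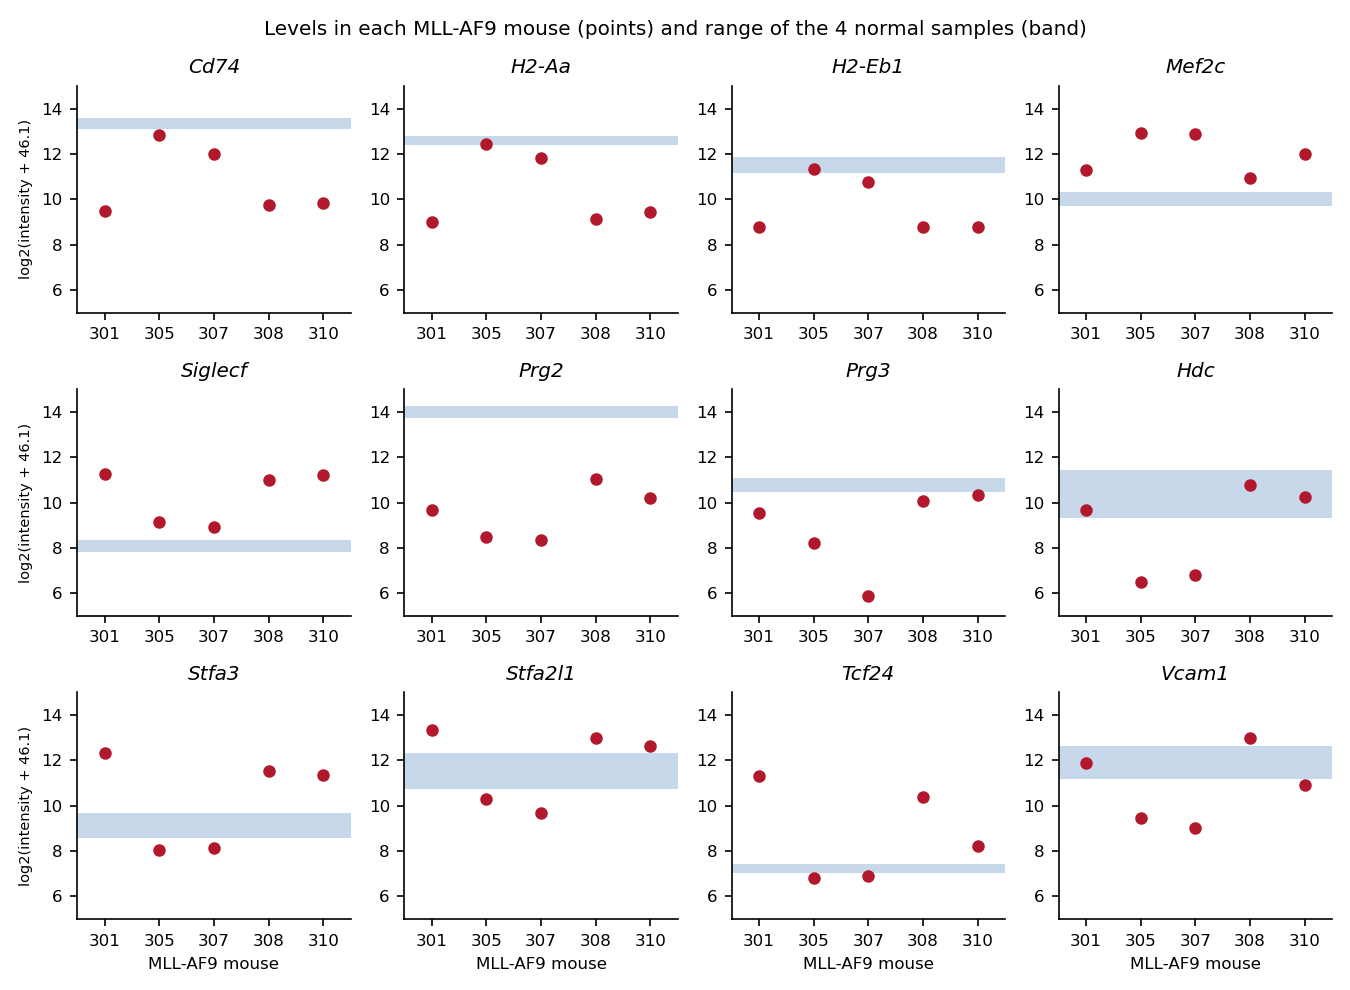
Levels (log2 of intensity plus 46.1, y axis) of 12 genes in each MLL-AF9 mouse (x axis), with the range of the 4 normal samples as a band. Mice MLL-AF9-305 and MLL-AF9_307 are highest for Cd74, H2-Aa, H2-Eb1 and Mef2c and lowest for Siglecf, Stfa3, Stfa2l1, Hdc and Vcam1.

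Against the mean of the other 4 leukaemia cohorts, each weighted equally, 41 of 12855 genes were called (0.319%), 34 higher (0.264%) and 7 lower (0.0545%), with 1053 at an unadjusted p under 0.05. The MLL-AF9 arrays are the same as in the comparison with normal marrow. Ecpas, a proteasome adaptor, was at 11.91, 12, 11.29, 12.21 and 12.34. The cohort means were 10.20 (MLL-AF1p), 10.34 (MLL-AF10), 10.18 (MLL-GAS7) and 10.21 (MLL-ENL), and 9.57 in normal marrow. Its level was 1.72 higher than in the other leukaemias (limma adjusted p = 8.34e-08), and 1 array of another cohort reached 11.29, level with mouse MLL-AF9_307. Chd9, a chromatin remodeller, was at 11.63, 11.14, 10.47, 11.74 and 11.50, against cohort means of 9.30, 9.69, 10.15 and 9.71 in the same order (1.58 higher, adjusted p = 2.79e-08), and 4 of the 5 mice lay above all 29 other leukaemia arrays. Fnbp1l was 1.83 higher than in the other cohorts (adjusted p = 0.000207), whose means ran from 9.73 (MLL-GAS7) to 11.47 (MLL-ENL). Mouse MLL-AF9_307, at 10.61, lay below that MLL-ENL mean, and the other 4 mice lay above all other leukaemia arrays. Ecpas, Chd9, Fnbp1l and Baz2b were called under all 21 alternatives, including within set 2, and the 34 included Meis1, 1.18 higher (adjusted p = 0.00554, or 0.368 within set 2). The cohorts were uneven for Meis1. Its mean was 11.39 in MLL-AF9, beside 10.46 (MLL-AF1p), 10.46 (MLL-AF10), 9.20 (MLL-GAS7) and 10.72 (MLL-ENL), and 1 MLL-AF9 array lay above all other leukaemia arrays.

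Nkg7 and Hmgn3 stood apart in another way, being close to normal in MLL-AF9 and lower in the other leukaemias. Nkg7, a gene of cytotoxic and granule-bearing cells, had means of 11.43 in MLL-AF9 and 11.22 in normal marrow beside 9.65, 9.04, 9.31 and 9.12 in MLL-AF1p, MLL-AF10, MLL-GAS7 and MLL-ENL (2.15 higher than those, adjusted p = 0.000314). Hmgn3, a nucleosome-binding protein gene, had means of 9.25 and 9.34 beside 7.25, 7.69, 8.19 and 6.81 (1.76 higher, adjusted p = 8.67e-05). Within set 2 both calls were lost (adjusted p = 0.0636 and 0.299). Ptgr1, which inactivates prostaglandins and leukotrienes, was 1.37 higher than in the other cohorts, a call that was also lost within set 2 (adjusted p = 0.107). Cftr (1.73 higher, adjusted p = 0.00933) lost its call without mouse MLL-AF9_301 or mouse MLL-AF9-310 (adjusted p = 0.106 and 0.105) and with a pseudocount of 1 (0.0739).

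Some of these genes lay side by side. Of the 34 higher genes 8 formed 4 pairs of neighbours among the genes tested, in RefSeq order, where 12834 such pairs exist. The pairs were Baz2b with Marchf7 on chromosome 2, Atp11b with Dcun1d1 on chromosome 3, Ptgr1 with Dnajc25 on chromosome 4, and Phip with Hmgn3 on chromosome 9. These neighbours, other than Ptgr1 and Hmgn3, were named after their values were seen. Marchf7 was at 12.44, 12.48, 12.42, 12.48 and 12.23, with all 5 mice above all 29 other leukaemia arrays (highest 12.19), and was 0.62 higher than the cohorts (adjusted p = 0.00397). Baz2b was 0.85 higher (adjusted p = 8.67e-05), Dcun1d1 0.98 (adjusted p = 0.00202), Phip 0.71 (adjusted p = 0.00054), Dnajc25 0.77 (adjusted p = 0.0419) and Atp11b 0.53 (adjusted p = 0.0284). Of these genes and Ptgr1, Baz2b was the one still called within set 2. Marchf7 (adjusted p = 0.508), Dcun1d1 (0.0755), Phip (0.271), Dnajc25 (0.484) and Atp11b (0.206) lost their calls there, so each of the 4 pairs lost at least 1 member. Phip also lost its call on averaged probe sets (0.214). The cohorts were uneven for the chromosome 3 pair. Dcun1d1 had a mean of 11.54 in MLL-AF9 and 11.43 in MLL-ENL, beside 9.96 to 10.71 in the other cohorts. Atp11b had means of 13.08 and 12.94, beside 12.27 to 12.51, and 0 MLL-AF9 arrays lay above all other leukaemia arrays. Leaving out single MLL-AF9 mice ended the calls of Atp11b (each of the 5 mice, adjusted p from 0.0562 to 0.161) and Dnajc25 (mice MLL-AF9_301, MLL-AF9_307, MLL-AF9-308 and MLL-AF9-310, adjusted p from 0.0688 to 0.257). Dnajc25 also lost its call without normal sample 1 or 3 (adjusted p = 0.0514 and 0.0509) and after quantile normalization (0.0961).

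The 7 lower genes were Ms4a6d, Mycn, Bbx, Cdkn2c, Bmpr2, Unc13b and Ninj1. Mycn was 1.45 lower than the mean of the cohorts (adjusted p = 0.00371), and that mean was raised by MLL-AF10 at 15.46, beside 11.63 in MLL-AF1p, 12.11 in MLL-GAS7, 12.14 in MLL-ENL and 11.38 in MLL-AF9. Bbx, 1.20 lower, likewise had unequal cohort means of 11.98 (MLL-AF1p), 11.24 (MLL-AF10), 9.33 (MLL-GAS7) and 9.28 (MLL-ENL), the last pair within the range of the MLL-AF9 values (8.93 to 9.51). Ms4a6d, of a family of monocyte surface genes, was 2.0 lower (adjusted p = 0.008, and 0.0796 without mouse MLL-AF9-308). Its cohort means were 10.75 (MLL-AF1p), 10.81 (MLL-AF10), 8.43 (MLL-GAS7) and 9.74 (MLL-ENL), beside 7.94 in MLL-AF9. Cdkn2c, a G1 inhibitor, was 1.05 lower (adjusted p = 0.00125), at a mean of 11.08 that MLL-ENL nearly shared (11.15), while the other cohorts lay at 11.88 to 12.80. Leaving out single MLL-AF9 mice ended the calls of Bmpr2 (mice MLL-AF9-305, MLL-AF9-308 and MLL-AF9-310, adjusted p from 0.0544 to 0.111), Unc13b (mice MLL-AF9_301 and MLL-AF9-305, 0.0831 and 0.188) and Ninj1 (mice MLL-AF9_301, MLL-AF9-308 and MLL-AF9-310, 0.0701 to 0.146). Within set 2 all 7 lost their call, with adjusted p from 0.201 for Bmpr2 to 0.683 for Ninj1.

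**Figure D5:**
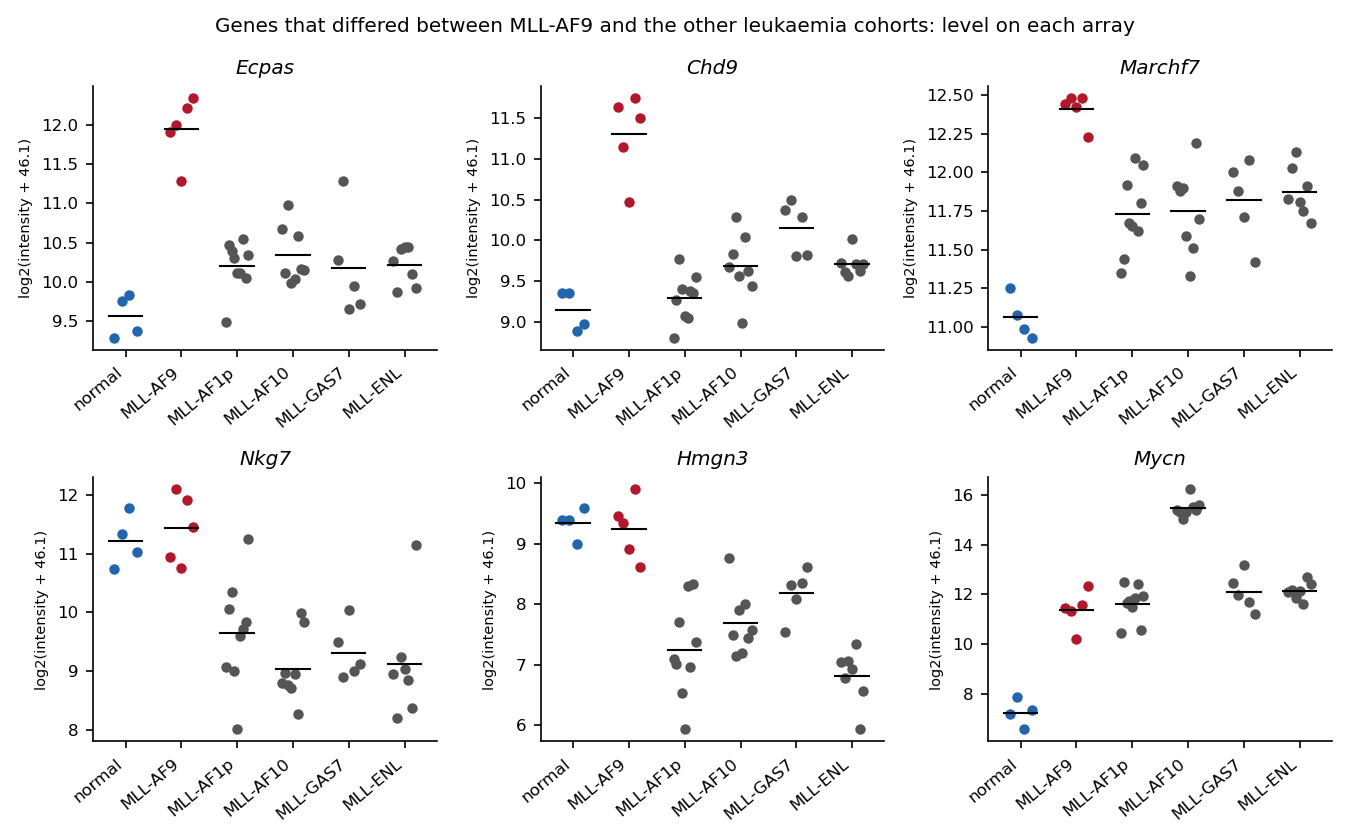
Levels (log2 of intensity plus 46.1, y axis) of Ecpas, Chd9, Marchf7, Nkg7, Hmgn3 and Mycn in all 38 arrays by group, with the group mean as a line. Ecpas, Chd9 and Marchf7 are highest in MLL-AF9, Nkg7 and Hmgn3 in MLL-AF9 lie close to normal marrow, and Mycn is highest in MLL-AF10.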

How the data were processed

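Expression was measured in whole bone marrow on 1-colour Affymetrix arrays with biotin labelling, per the labels' protocols, with 1 array per sample. Each probe set has 1 linear intensity in the deposited values, already scaled by the authors: as the values show, each array's mean after trimming 2% at each end is 500.0. They came from software not given in the sources used here, and no detection calls were used. Of 45101 probe sets 34958 carry 1 gene symbol in the platform annotation, 932 several and 9147 none (64 more are controls), and 34754 of the first were matched to the RefSeq table, which changed 0 symbols. Those with several symbols or none named no gene.

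From the intensities, log2(intensity + 46.1) was computed, with 46.1 taken as the 25th percentile over all arrays. Fold changes on this scale understate the changes of dim genes. Array medians spanned 0.537, above the limit of 0.5, so arrays were shifted to a common median. Probe sets above their array's median on at least 4 of the 38 arrays were kept (29041), and the brightest of several stood for its gene (5813 genes had several). A model of 6 group means was fitted to all 38 arrays with limma 3.58.1 in R 4.3.3 (32 residual degrees of freedom), giving MLL-AF9 minus normal and MLL-AF9 minus the mean of the other cohorts, each adjusted by Benjamini-Hochberg over 13334 genes. The 408 genes on chromosomes X or Y (125 called) and 71 of unknown chromosome were set aside, which left 12855. The fit was tested on simulated data. The number of arrays limits the precision.

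Lists of genes were described by counts and medians. Members and lists were chosen with earlier results of these data known. Named genes were the 20 largest rises and falls with no overlap between groups, up to 5 risers and fallers of each list, every tested member of lists with at most 12, the genes of MLL and its partners and 9 leukaemia genes (Hoxa9, Hoxa10, Meis1, Mycn, Myc, Kit, Cd34, Spi1 and Cebpa), the 8 largest differences from the other cohorts each way and the 10 largest SDs among MLL-AF9 samples, leaving out predicted and sex-chromosome genes. Other members of a list were named after their values were seen. Promoter sequences are those of RefSeq (GRCm38.p6), matched by symbol. Array sets came from 2-means clustering of 100 probe sets. Alternatives changed the normalization, pseudocount, filter, probe set rule, variance model and arrays included.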

Additional observations from a re-analysis of the deposited data

Results flagged for a closer look

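The values below stood far from the rest of their group of 4 or 5 samples by Dixon's test. Chance alone flags about 1 in 20 groups. The number of groups examined is not given here, so the flags cannot be set beside that share.

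Mouse MLL-AF9_307 was the lowest MLL-AF9 sample for Baz2b (12.04), Cd83 (5.82), Dnmt3l (6.65), Fnbp1l (10.61), Gfi1 (10.58), Ikzf2 (11.16), Lmo2 (13.05), Myb (13.66), Sgip1 (10.79) and Srgn (14.26), and the highest for Ppbp (7.56). Mouse MLL-AF9-305 was the lowest for Apoc2 (10.97), Birc5 (10.95), Cenpf (9.50), Mzb1 (8.14), Phf19 (9.18), Rrm2 (12.18) and Ube2c (10.89), and the highest for Tent5c (7.31) and Vwf (7.66). Mouse MLL-AF9_301 was the highest for C1qa (8.12), Cd5l (7.87), Rpl37 (13.20) and Six4 (8.82) and the lowest for Mecom (6.29). Mouse MLL-AF9-308 was the highest for Hemgn (6.58) and Il7r (7.80). Mouse MLL-AF9-310 was the lowest for Eya1 (8.30), Hoxb7 (6.69) and Marchf7 (12.23). Each of these rises and falls that was called against normal stayed called without the named mouse.

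Among normal samples, sample 4 was the lowest for Atp11b (11.48), Bbx (8.65), Cd68 (10.36), Ctsa (10.98), Eml5 (6.02) and Unc13b (6.08). Sample 3 was the lowest for Aff3 (9.37), Car2 (14.55), Rhag (12.05) and Rrm2 (13.46) and the highest for Stfa3 (9.70). Sample 1 was the lowest for Gata2 (9.64) and the highest for Hoxa7 (6.35) and Pbx3 (8.89).

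Other results were singled out because MLL-AF9 differed from the mean of the other 4 cohorts in the limma test. The log2 differences were 2.15 for Nkg7, 1.83 for Fnbp1l, 1.76 for Hmgn3, 1.73 for Cftr, 1.72 for Ecpas, 1.58 for Chd9, 1.37 for Ptgr1, 1.18 for Meis1, 0.98 for Dcun1d1, 0.85 for Baz2b, 0.77 for Dnajc25, 0.71 for Phip, 0.62 for Marchf7 and 0.53 for Atp11b. On the lower side they were -2.0 for Ms4a6d, -1.45 for Mycn, -1.20 for Bbx, -1.05 for Cdkn2c, -0.84 for Bmpr2, -0.74 for Unc13b and -0.56 for Ninj1.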

How the results depend on the processing

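No paired analysis was possible because the MLL-AF9 and normal samples came from different mice. The 4341 genes called against normal (3057 higher, 1284 lower) were 2941 within array set 2 (1928 higher, 1013 lower), 3509 to 4325 when single samples were left out, and 3563 to 5382 under the other alternatives. The total stayed within 1.5 times under each, but the higher calls within set 2 did not. Of the 248 genes named here, 236 kept their direction and call within set 2, 244 under quantile normalization and 246 on the values as deposited. Counts of list members changed by more than 1.5 times most often within set 2 (23 of 92 counts), and then when probe sets that can detect several genes were left out (16), which also removes genes from the lists. The alternatives with the array set were chosen after seeing the data, and with 2 MLL-AF9 arrays the smaller number of samples bears on every call within set 2. The cause of the other shifts was not tested.

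The 41 genes called against the other cohorts were 136 with array weights, 60 under quantile normalization, 54 with the array set as a term and 7 within set 2, and 26 to 51 without single samples. The count was 26 without mouse MLL-AF9_301, MLL-AF9-308 or MLL-AF9-310. The difference in the Gapdh 3' to 5' ratio, 0.013, ran from -0.019 without normal sample 3 to 0.058 and was -0.009 without mouse MLL-AF9-308. That of the hybridisation controls ran from -0.323 to 0.224 without normal sample 3. Neither difference passed the exact permutation test on all samples. No detection calls were used, so how far a dim gene stood above background was not measured.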
